A study of Drosophila melanogaster with 4 samples.

Results

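The centromere-proximal 2 Mb of the X, 2L, 3L and 3R arm sequences of Drosophila melanogaster held 321 of the 7116 regions enriched for HP1c in adult head nuclei. These regions, called clusters below, were chosen by position alone, from the list in which the authors combined both ChIP replicates (the replicate set). A cluster was a member if its midpoint lay above 20422827 on X, above 21011544 on 2L, above 22543557 on 3L, or at or below 2000000 on 3R, in FlyBase release 5 coordinates. Of the 321 members, 74 lay on X, 73 on 2L, 40 on 3L and 134 on 3R. The same intervals held 260 of the 6008 clusters of replicate 1 and 249 of the 5764 clusters of replicate 2. Every member carries a score and none was filtered out.

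HP1c is 1 of the small chromodomain proteins of the heterochromatin protein 1 family. Its relative HP1a is the classic component of pericentric heterochromatin, the repeat-rich and gene-poor chromatin that flanks centromeres. HP1c is known mainly from euchromatin, where it acts together with the zinc finger proteins WOC and ROW at active genes. The arm sequences run from euchromatin toward pericentric heterochromatin at their centromeric ends, so these stretches take in the passage from the one to the other. The centromeric end is the highest position of the X, 2L and 3L sequences and position 1 of the 3R sequence.

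The study mapped HP1c by ChIP-seq in wild-type flies of the Oregon-R-modENCODE strain, collected as mixed adults, in libraries labelled MO 462. Per the labels' protocols, heads were sieved from adults raised in population cages, fixed with formaldehyde and sonicated. The 4 samples were 2 HP1c ChIP libraries and 2 inputs, each input paired with the ChIP library of its number. Nothing in the labels says that separate batches of flies gave the 2 replicates, so each SD is the spread of 2 libraries and may be technical. With 2 libraries no exact two-sided test over samples can go below p = 0.5, and clusters of 1 library are not replicates. Differences are therefore given by the values of both libraries and no p-value is given. The lists carry no read counts, so depth is unknown, and densities are per base of arm sequence, whether or not reads can map there. No member's sequence or neighbouring genes were analysed here.

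HP1c clusters were sparser in these stretches than in the rest of the same 4 arms pooled, and arm by arm on X, 2L and 3L but not on 3R. Replicate 1 held 32.5 clusters per Mb in the 4 stretches against 50.2 in the rest of the arms. Replicate 2 held 31.1 against 48.2. The ratios of 0.648 and 0.645 averaged 0.647 ± 0.00177 (SD, n = 2). Without 3R it was 0.461, and without 3L it was 0.769, so the pooled ratio stands for no single arm. By bases, clusters covered 8.73% of the stretches against 13.3% of the rest in replicate 1, and 8.79% against 12.7% in replicate 2.

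The arms stood in the same order in both libraries. The 3L stretch was the sparsest, with 27 clusters in replicate 1 and 26 in replicate 2, or 13.25 ± 0.354 per Mb against 48.5 ± 0.345 in the rest of 3L (SD, n = 2). The X stretch held 56 and 53 clusters, or 27.25 ± 1.06 per Mb against 61.5 ± 1.80 in the rest of X, the densest of these arms. The 2L stretch held 64 and 57, or 30.25 ± 2.47 per Mb against 44.0 ± 1.11. The 3R stretch held 113 in each library, or 56.5 per Mb, above the 44.4 ± 2.13 per Mb of the rest of 3R. The ratios to the rest of the arm were 0.273 ± 0.00535 for 3L, 0.443 ± 0.00427 for X, 0.686 ± 0.0389 for 2L and 1.28 ± 0.0612 for 3R (SD, n = 2). The densities of X and 2L lay closest to each other, at 28 and 26.5 per Mb against 32 and 28.5, and the gap between the higher X value and the lower 2L value was smaller than the spread within either arm.

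Set against the other full windows of 2 Mb on the same arm, counted from the centromeric end, the proximal window was the lowest on X and 3L in both libraries. On X the other 10 windows held 110 to 142 clusters in replicate 1, with a median of 126, and 97 to 137 in replicate 2, with a median of 121. On 3L the other 11 windows held 49 to 122 in replicate 1 and 56 to 131 in replicate 2, with a median of 102 in each. On 2L the proximal count of 64 in replicate 1 was above 1 of the other 10 windows, and the count of 57 in replicate 2 was below all of them. The lowest other window of 2L held 62 in each library, though not the same window: that from 6 to 8 Mb held 62 and 69, and that from 8 to 10 Mb held 66 and 62. On 3R the proximal window was denser than 11 of the other 12 windows in each library.

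**Figure D1:**
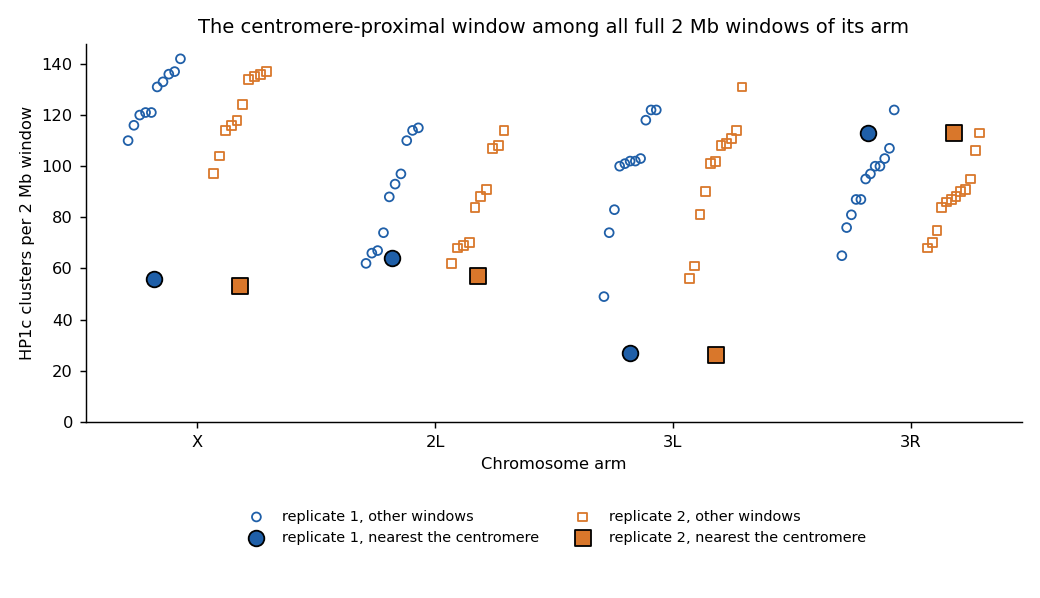
HP1c clusters in each full 2 Mb window of X, 2L, 3L and 3R (vertical axis, clusters per window), with large filled symbols for the window nearest the centromere and open symbols for the other windows, circles for replicate 1 and squares for replicate 2. The proximal windows of X (56 and 53) and 3L (27 and 26) lie below all others of their arms, and that of 3R (113 and 113) lies near the top.

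Within the stretches the counts did not decline evenly toward the end. On 3L the last 1 Mb held 6 and 9 clusters in replicates 1 and 2, and the next 1 Mb held 21 and 17. On X these counts were 21 and 20 in the last 1 Mb and 35 and 33 in the next. On 2L they were 32 and 26, then 32 and 31, so replicate 1 showed no difference between them. On 3R they were 50 and 47, then 63 and 66. In bins of 0.25 Mb, the fullest lay on 3R from 1.25 to 1.5 Mb from the end, with 24 clusters in replicate 1 and 25 in replicate 2. The last 0.25 Mb of 3R still held 19 and 18 clusters, against 4 and 3 on X, 6 and 7 on 2L and 1 in each library on 3L. That last bin of 3L was the emptiest, and the next 2 bins of 3L, up to 0.75 Mb, held 2 and 2, then 1 and 2. The bin of X from 0.25 to 0.5 Mb also held 1 and 2, and those of 2L and 3L from 1 to 1.25 Mb each held 2 and 1. The libraries differed by at most 4 clusters in any bin of the stretches.

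**Figure D2:**
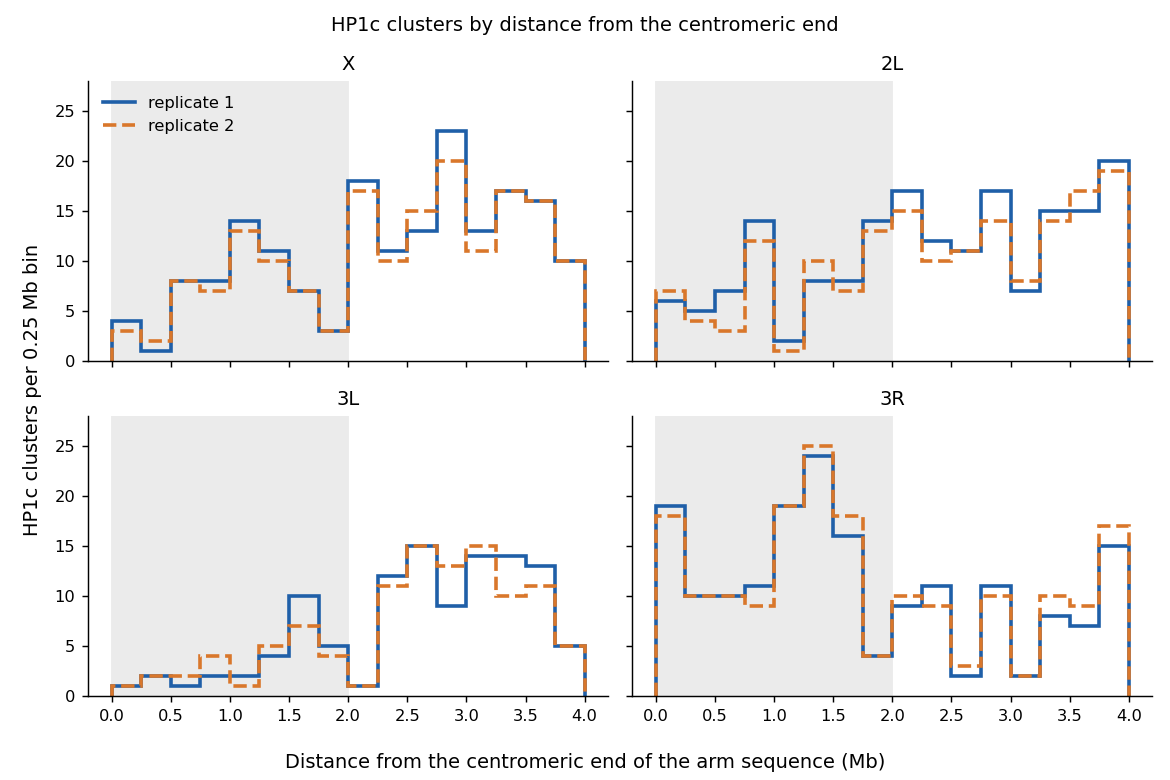
HP1c clusters per 0.25 Mb bin (vertical axis) against distance from the centromeric end of the arm sequence in Mb (horizontal axis), for replicate 1 (solid) and replicate 2 (dashed), with the 2 Mb stretches shaded. On 3L the last 1 Mb holds 6 and 9 clusters, whereas on 3R the bin from 1.25 to 1.5 Mb holds 24 and 25.

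Long empty runs lay within the X, 2L and 3L stretches. The widest gap between neighbouring members on X ran from 21505916 to 21815835, over 310 kb, and no gap in the rest of X was wider (the widest was 183 kb). On 3L the widest ran from 24225700 to 24526340, over 301 kb, and 1 gap in the rest of 3L was wider, at 351 kb. On 2L it ran from 21829283 to 22018129, over 189 kb, with 2 wider gaps in the rest of the arm. On 3R it ran from 1734880 to 1818925, over only 84.0 kb, and 41 gaps in the rest of 3R were wider. Neither replicate held a cluster within any of these 4 gaps. Gaps over 50 kb made up 14.7% of all gaps in the stretches in replicate 1 and 16.2% in replicate 2, against 9.12% and 9.49% in the rest of the 4 arms. On 3R the order was the opposite, with 7.14% in each library against 10.9% and 11.4% in the rest of 3R. In the X, 2L and 3L stretches the shares ran from 17.2% on 2L in replicate 1 to 40.0% on 3L in replicate 2.

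Pooled over the 4 arms, the median gap between neighbouring clusters was 7634 bp in the stretches and 6901 bp in the rest of the arms in replicate 1, and 8597 bp against 7271 bp in replicate 2. Gaps under 5 kb were 40.3% of those in the stretches against 41.1% in the rest in replicate 1, and 37.7% against 40.4% in replicate 2. On X the median gap was 5178 bp against 5210 bp in the rest of X in replicate 1, and 6525 bp against 5581 bp in replicate 2. On 3R it was 6990 bp against 7326 bp and 6833 bp against 7863 bp. On 2L it was 8254 bp against 7727 bp in replicate 1 and 14553 bp against 8051 bp in replicate 2. On 3L typical spacing was wide as well, with median gaps of 26710 bp and 24829 bp against 8236 bp and 8258 bp.

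The arm ends themselves were not free of HP1c. The X member nearest the end, from 22414050 to 22416362, scored 1.55 in replicate 1 and 1.50 in replicate 2. On 3L, the member from 24526341 to 24532400 was 6060 bp wide and scored 1.76 in replicate 1 and 3.18 in replicate 2. It stood alone beyond the 301 kb gap. On 3R the first member ran from 1 to 1532 and was found in replicate 1 alone, with a score of 1.09. On 2L the last member, from 23002412 to 23004596, overlapped no cluster of either replicate although it ranked 941 in the replicate set, with a score of 2.23. Just inside the 2 Mb limits lay members at 20525330 to 20529067 on X, 21050960 to 21053382 on 2L, 22634650 to 22636228 on 3L and 1966042 to 1968375 on 3R, which scored 2.00, 1.01, 0.141 and 0.830 in the replicate set. The nearest clusters outside scored 0.688 on X, 0.399 on 2L, 2.69 on 3L and 1.34 on 3R. Of these clusters at the limits, the 3L one inside and the X one outside overlapped no cluster of either replicate. The others overlapped clusters of both.

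By score, the clusters of the stretches stood near or above the middle of each list. Each list was ranked on its own, so that a percentile of 50 is the middle of that list. The median cluster in the stretches stood at percentile 51.4 in replicate 1 and 56.6 in replicate 2, against 50.4 and 49.6 in the rest of the arms. Parts differed: the last 1 Mb of 3R stood at 38.4 and 43.0, and the next 1 Mb of 3R at 57.4 and 58.0. In the replicate set the 3L members stood at 40.1, against 50.9 on X, 60.7 on 2L and 53.7 on 3R. The separate libraries did not place 3L lowest. Proximal 3L clusters stood at 51.5 in replicate 1, against 50.1 on X, 50.8 on 2L and 53.0 on 3R. In replicate 2 they stood at 65.7, against 58.1 on X, 60.7 on 2L and 53.4 on 3R. The sources used here do not give the scale of the score. In replicate 1, 211 scores had another score exactly 1 higher (within 1e-09), as had 207 in replicate 2, and none had one at the step that natural or common logarithms give for a ratio of 2. Such steps are what log2 ratios would give, but they do not establish the scale, and its reference point is unknown. Scores are therefore compared within a list and not read as fold enrichment.

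The 2 highest-scoring members of all lay on 3R and the next on 3L, and all 12 of the members that scored highest in their stretch (3 per arm) met exactly 1 cluster in each library. The top member, on 3R from 1479285 to 1482015, scored 3.25 in replicate 1 and 3.85 in replicate 2, ranks 130 and 57 in those lists. The next on 3R, from 1056727 to 1059285, scored 3.42 and 3.57 (ranks 74 and 128). The third, from 1472671 to 1475976, scored 3.12 and 3.82 (ranks 173 and 64), a short way before the top one. On 3L, a member from 22733460 to 22737453 scored 3.28 and 3.51 (ranks 117 and 147). The next on 3L, from 22709378 to 22712039, scored 2.46 and 3.21, and another, from 22870806 to 22873186, scored 2.70 and 2.81. All 3 of the 3L members lay more than 1 Mb from the end.

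On X the highest member ran from 21235730 to 21241528 over 5799 bp and scored 3.15 in replicate 1 and 3.22 in replicate 2. A neighbour from 21243542 to 21247963 scored 2.30 and 2.57, and a member from 20923286 to 20926780 scored 2.62 and 2.54. On 2L the highest ran from 21793783 to 21796374 and scored 2.72 and 3.27. The member from 22428321 to 22432114 scored 2.32 and 3.24, and that from 21756221 to 21759079 scored 2.39 and 3.01. Ranked within each list, the 3 X members, the 3L members at 22733460 and 22870806 and the 3R member at 1056727 stood at a lower percentile in replicate 2 than in replicate 1, and the other members of these 12 stood higher. None of the 10 highest clusters of any list lay in the stretches. The 100 highest held 1 in replicate 1 and 3 in replicate 2, all on 3R, and the 1000 highest held 40 and 49. By number, the stretches made up 4.33% of the list of replicate 1 and 4.32% of that of replicate 2.

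Among the members, wide ones were most frequent on 2L. Of the 2L members, 12 of 73 were at least 5 kb wide (16.4%), against 5.42% in the rest of 2L and 6.28% of the whole replicate set. The counts were 8 of 74 on X, 4 of 40 on 3L and 2 of 134 on 3R, and 26 of 321 in all (8.10%). In replicate 1, 7 of 64 proximal 2L clusters were this wide (10.9%), and in replicate 2, 10 of 57 (17.5%), against 5.53% and 5.6% of those whole lists. Proximal 2L clusters had a median width of 2690 bp in the first library and 3025 bp in the second, against 2254 bp and 2273 bp in the rest of the arm. On 3R the proximal clusters were 2296 bp and 2356 bp wide, against 2287 bp and 2304 bp, and only 1 of 113 reached 5 kb in each library.

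Of the 10 widest members, 8 lay on 2L. The widest ran from 22959746 to 22970688, over 10943 bp, and was 1 cluster of 10932 bp in replicate 1 and of 10410 bp in replicate 2. It scored 1.43 in replicate 1 and 2.44 in replicate 2. The next, from 22867145 to 22876829, covered 9685 bp, of which replicate 1 called 7156 bp and replicate 2 called 7655 bp. The third, from 22464275 to 22472898 over 8624 bp, was called as 3 clusters in replicate 1 and as 1 of 7572 bp in replicate 2. In the 2L stretch clusters covered 10.1% and 10.3% of the bases, 0.878 ± 0.0304 times the rest of 2L (SD, n = 2), against a ratio of 0.686 for cluster numbers.

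**Figure D3:**
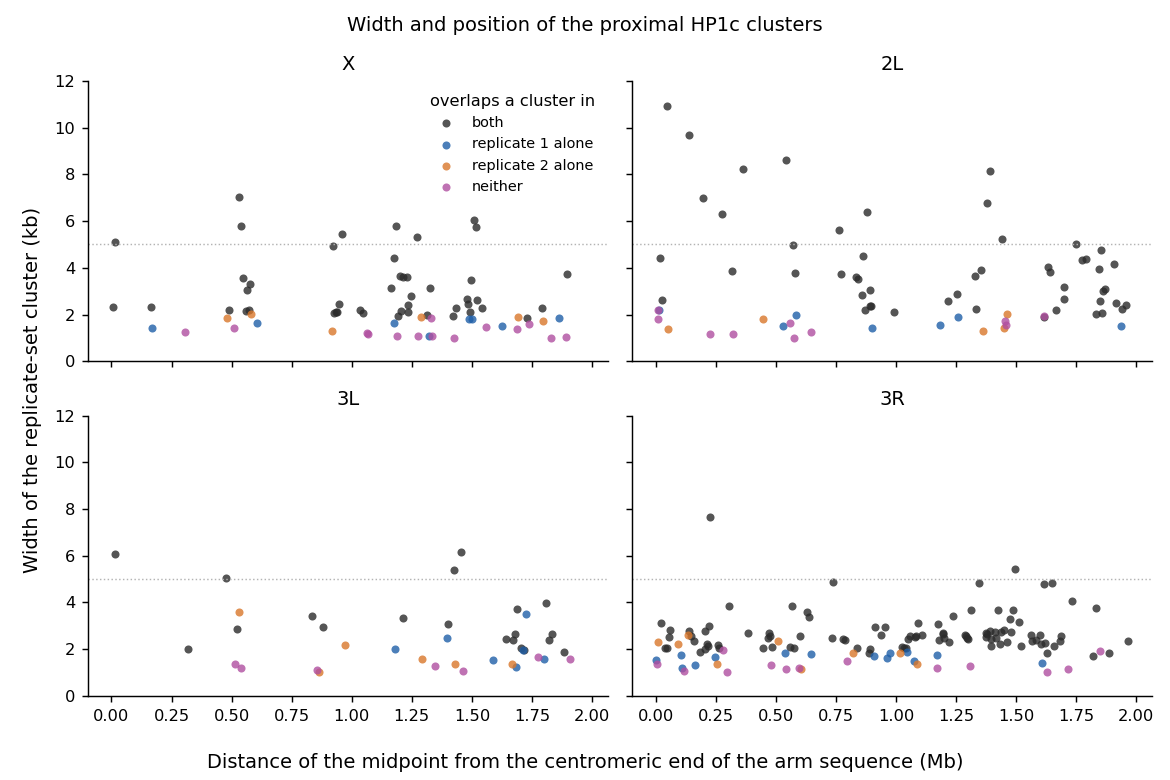
Width of each of the 321 members in kb (vertical axis) against the distance of its midpoint from the centromeric end in Mb (horizontal axis), 1 panel per arm, coloured by whether a cluster of both replicates, of 1 replicate alone or of neither overlaps it; the dotted line marks 5 kb. Wide members gather on 2L (12 of 73), and members found in neither replicate have a median width of 1262 bp.

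The libraries marked mostly the same places. Of the proximal clusters of replicate 1, 224 of 260 overlapped a cluster of replicate 2 (86.2%, exact binomial 95% interval 81.3 to 90.1), against 86.5% of the whole list. In replicate 2, 222 of 249 overlapped replicate 1 (89.2%, 84.6 to 92.7), against 90.1%. These intervals cover the number of clusters only. In pairs in which each cluster met 1 partner, the median difference was 81 bp at the start and 65 bp at the end over 207 proximal pairs, and by 63 bp and 60 bp over 3704 pairs in the rest of the arms. On 3L the overlap was lower in value, at 20 of 27 in replicate 1 (74.1%, 53.7 to 88.9) and 20 of 26 in replicate 2 (76.9%, 56.4 to 91.0), and both intervals held the share of the whole list.

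Among the members, 215 of 321 overlapped a cluster in both replicates (67.0%, exact binomial 95% interval 61.5 to 72.1), against 71.3% of the whole replicate set and 71.9% of the rest of the 4 arms. Replicate 1 alone overlapped 36 members, or 11.2% against 10.6% of the whole list, and replicate 2 alone 26, or 8.10% against 7.28%. Neither overlapped 44, or 13.7% (10.1 to 18.0) against 10.8% of the whole list. By arm, both replicates were met by 98 of 134 members on 3R (73.1%), 51 of 73 on 2L (69.9%), 46 of 74 on X (62.2%) and 20 of 40 on 3L (50.0%, 33.8 to 66.2). The share in the rest of 3L was 73.2%. The replicate set was made from these replicates, so the shares describe how the lists relate and are no test.

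Members met in both libraries were the widest and highest-scoring class, with medians of 2646 bp for width and 1.33 for score. For members met by the first library alone these medians were 1653 bp and 0.276, and for the second alone 1816 bp and 0.354. Those in neither had 1262 bp and 0.392, and 25 of these 44 were narrower than 1301 bp, the narrowest cluster of either replicate. The whole replicate set had the same order, so it is not a trait of the members. There the medians were 2510 bp and 1.17 for both, 1769.5 bp and 0.279 for replicate 1 alone, and 1801.5 bp and 0.297 for replicate 2 alone. For neither they were 1264.5 bp, also below 1301 bp, and 0.347. The end of 2L held exceptions, but not the only ones. Clusters found in neither library reached a score of 3.34 in the whole list and 2.34 in the rest of 3R. The 3 highest-scoring members found in neither library were all on 2L, at 23002412 to 23004596 (score 2.23), 22999523 to 23001352 (1.89) and 22785202 to 22786367 (1.10). Beside the first pair, a member from 22996644 to 22998846 scored 2.39 and was met in replicate 1 alone, where its cluster scored 2.53 and ranked 506. It was the highest-scoring cluster of the entire replicate set found in replicate 1 alone, and was looked at after its value was seen.

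Overlapping clusters that scored high in the first library mostly scored high in the second, and on 2L and 3L they stood higher in the ranking of replicate 2. The correlation of scores over 224 proximal pairs was 0.846 by rank (Spearman's rho) and 0.855 on the scores (Pearson's r), against 0.891 and 0.911 over 3906 pairs in the rest of the arms. These describe clusters of the same 2 libraries, which are not independent. The comparison of ranks that follows was chosen after seeing the data. The shift of a pair is its percentile in replicate 2 minus that in replicate 1.

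In the rest of the 4 arms the median shift was -2.63 points, and 37.9% of pairs stood higher in replicate 2, against 40.2% of all pairs of the lists. In the stretches the median shift was 1.75 points (95% interval of the median -0.395 to 4.22) and 124 of 224 pairs stood higher in replicate 2 (55.4%). On 3L, 15 of 20 proximal pairs stood higher, with a median shift of 8.24 points (2.69 to 17.1). On 2L, 39 of 57 did, with 5.45 points (1.31 to 14.5). On X it was 24 of 48, with -0.0525 points (-2.64 to 6.04), and on 3R 46 of 99, with -0.989 points (-4.07 to 1.25). The rest of X had a median shift of -4.26 points, that of 2L -1.15, that of 3L -1.86 and that of 3R -2.51. The median of each stretch thus stood above that of the rest of its own arm, but the 3R interval held the median of the rest of 3R. The intervals rest on the order of the pairs alone and treat neighbouring clusters as independent. With reciprocal overlap of at least 50% the 2L value was 2.64 points (-0.646 to 6.98) over 46 pairs, and that of 3L was unchanged.

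Within the stretches the median shift was largest in the last 1 Mb of 2L and 3L, though on 3L that part gave only 6 pairs. There 23 of 28 pairs on 2L and 6 of 6 on 3L stood higher in replicate 2, with medians of 15.5 points (6.98 to 28.3) and 17.9 points (2.69 to 35.7). Pairs were taken per replicate 1 cluster, so a replicate 2 cluster that met several was counted with each, as happened on 2L. With reciprocal overlap of 50%, which drops such repeats there, 15 of 19 pairs on 2L stood higher. Their median was 14.5 points (2.11 to 17.7). From 1 to 2 Mb the medians were 0.854 points (-1.23 to 5.05) on 2L and 5.60 (-4.22 to 13.1, 14 pairs) on 3L. The 3L interval overlaps that of the last 1 Mb of 3L. In the last 1 Mb of X and 3R together 30 of 59 pairs stood higher, with a median of 1.11 points. Of the 47 full windows of 2 Mb on the 4 arms, the proximal ones of 3L and 2L had the highest and the next highest median shift. The other 43 windows ran from -7.18 to 1.15 points, and 6 of them were above 0. These ranks were the same with reciprocal overlap of 50%. Among the X windows the proximal one, at -0.0525 points, was also the highest, and the next highest had -2.01. On 3R the window next to the proximal one had 0.286 points, above the -0.989 of the proximal one.

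**Figure D4:**
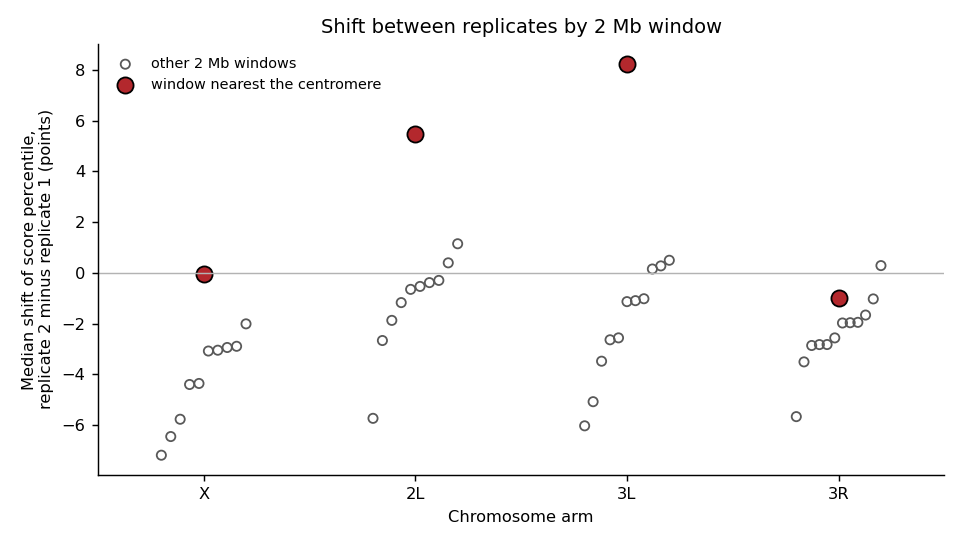
Median shift of score percentile between overlapping clusters, replicate 2 minus replicate 1 in percentile points (vertical axis), for each full 2 Mb window of X, 2L, 3L and 3R, with filled symbols for the window nearest the centromere and open symbols for the others. The proximal windows of 3L (8.24) and 2L (5.45) lie above all 43 others, whose highest value is 1.15.

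Single pairs, picked after their values were seen, show the size of this difference. On 2L, a cluster from 22690304 to 22693770 scored 0.550 in replicate 1 and its partner scored 2.14 in replicate 2, percentiles 24.7 and 77.0. On 3L, a cluster from 24019783 to 24022395 scored 1.06 and its partner 2.81, percentiles 54.7 and 89.2. Another on 3L, from 23705810 to 23708756, scored 0.983 and its partner 2.68, percentiles 51.5 and 87.2. Single pairs elsewhere moved as far, such as 1 on X from 21930871 to 21932776, with scores of 0.346 and 1.63 (percentiles 6.80 and 65.1). Pairs also moved the other way, as did 1 on 3L from 22839891 to 22841972, with scores of 0.735 and 0.235 (percentiles 38.3 and 2.11). On 2L, 1 from 22018117 to 22020235 had scores of 0.803 and 0.397 (percentiles 42.7 and 11.4). Which library stands nearer to the true ranking cannot be told from 2 libraries.

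**Figure D5:**
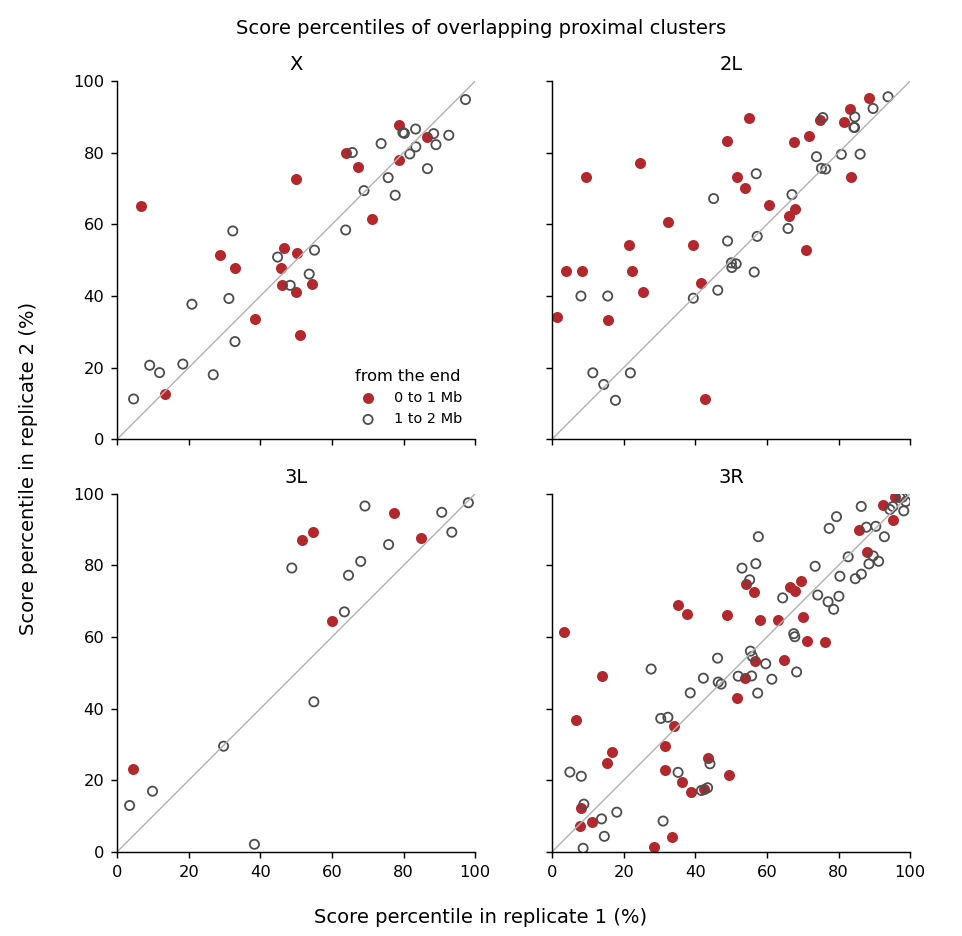
Score percentile in replicate 2 (vertical axis, %) against that in replicate 1 (horizontal axis, %) for the 224 pairs of overlapping proximal clusters, 1 panel per arm, filled for pairs 0 to 1 Mb from the centromeric end and open for 1 to 2 Mb; the line marks equal percentiles. On 2L, 23 of 28 filled points lie above the line, and on 3L 6 of 6, against 30 of 59 on X and 3R together. A replicate 2 cluster that met several replicate 1 clusters appears once for each.

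Chromosome 4 and the set of Het scaffolds and U had median shifts above 0, as did the 2L and 3L stretches. The X and 3R stretches had median shifts of -0.0525 and -0.989 points, with intervals that span 0. Both medians stood above those of the rest of their own arms, but the 3R interval held the median of the rest of 3R. On chromosome 4, a small autosome rich in heterochromatin, 46 of 53 pairs stood higher in replicate 2, with a median shift of 14.5 points (8.84 to 31.0). On the Het scaffolds and U, which hold heterochromatic and unplaced sequence, 60 of 78 did, with 10.7 points (7.38 to 15.1). Scores in these sets went together less closely between the libraries than over the stretches pooled. Spearman's rho was 0.646 on chromosome 4 and 0.478 on the scaffolds and U, against 0.846 in the stretches. Within the stretches it was lower near the end. In the last 1 Mb it was 0.621 on X, 0.688 on 2L, 0.6 on 3L (6 pairs) and 0.744 on 3R. From 1 to 2 Mb it was 0.912 on X, 0.937 on 2L, 0.916 on 3L and 0.904 on 3R. Clusters of chromosome 4, the scaffolds and U share both libraries with those of the stretches. These values are therefore set side by side and are not independent of one another.

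Of the 15 regions that the replicate set names as depleted, 1 lay in the stretches, and the replicates named none there. It lay at 1182981 to 1184852 on 3R and scored -0.0281. No enriched cluster of replicate 1 overlapped it, whereas replicate 2 called an enriched cluster from 1182992 to 1184837 at nearly the same place, with a score of 0.171.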

How the data were processed

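HP1c ChIP-seq was done in adult Oregon-R head nuclei in 2 ChIP libraries, with 2 inputs that have no list of their own here. The authors deposited 1 list of called regions per ChIP library and 1 for the replicate set, each region with a score. The submitters' processing notes name Bowtie 0.12.7, and the build is FlyBase release 5, per the file headers. Not given in the sources used here are the caller, its threshold, the way replicates were combined and the scale of the score. Depth is unknown.

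Regions named enriched were kept. Stretches were set by midpoint, density was clusters per Mb, and overlap was at least 1 bp. Pairs took, for each replicate 1 cluster, the replicate 2 partner with the largest overlap, so a partner could recur. Shares carry exact (Clopper-Pearson) 95% intervals, and medians of shifts carry 95% intervals from order statistics. No test was run. Regions were named by rule: the 3 highest in each stretch, the 3 widest, those at the arm ends and limits, the widest gaps, the 3 highest found in neither replicate, depleted regions and the fullest and emptiest bins. The members, lists and comparisons were chosen with earlier results of these data known, and the comparison of percentiles between replicates was added after seeing the data. Alternatives included stricter scores, covered bases, merging within 500 bp, stretches of 1 and 3 Mb, and leaving out arms and replicates. The density and overlap steps were tested on simulated data. Arm 2R is outside the rule and was not used in comparisons of arms. No release 5 annotation was used here, so no genes were assigned. Tools were Python 3.11.15 with pandas 2.3.3, numpy 2.4.6, scipy 1.17.1, and matplotlib 3.10.9 for the figures.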

Additional observations from a re-analysis of the deposited data

How the results depend on the processing

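Of 59 alternatives over 16 results, 36 stayed within the SD of the replicates or the interval of the value and 23 moved beyond it. Leaving out a replicate stays within the SD of the same 2 libraries by construction, so it could not move. All 23 that moved were among the 43 other alternatives. None was labelled as reversed, but shares, the correlation and shifts whose interval spans 0 could not be labelled so. The pooled density ratio of 0.647 moved to 0.702 in the upper 50% by score, 0.673 by covered bases, 0.642 with clusters within 500 bp merged, 0.542 with stretches of 1 Mb, 0.748 with stretches of 3 Mb, 0.731 without X, 0.637 without 2L, 0.769 without 3L and 0.461 without 3R. In the upper 50% by score the ratio was 0.459 for X, 0.805 for 2L and 0.322 for 3L. By covered bases it was 0.425 for X, 0.878 for 2L, 0.297 for 3L and 1.21 for 3R, which follows from cluster widths. With stretches of 1 Mb it was 0.341 for X, 0.159 for 3L and 1.08 for 3R. The width ratio of 1.04 became 1.07 with merging, the score percentile of 54.0 became 58.6 among clusters that overlap the other replicate, the share of members in both replicates became 92.5% in the upper 50% by score, and the pooled shift became 5.07 points with stretches of 1 Mb. Apart from the constructions named, the cause was not tested. Leaving out either replicate gave 0.645 to 0.648 for all stretches, 0.440 to 0.446 for X, 0.659 to 0.714 for 2L, 0.270 to 0.277 for 3L, 1.23 to 1.32 for 3R, 1.03 to 1.05 for width, 51.4 to 56.6 for percentile and 1.11 to 1.18 for the ratio of median gaps. No paired analysis was possible because a replicate block needs values of both ChIP and input, and the inputs have no list here; proximal and rest were compared within each library. Alternatives of the percentile shift and of the correlation were chosen after seeing the data.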
